A study of Homo sapiens with 4 samples.

Results

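The ID genes (ID1, ID2, ID3 and ID4) were described in the peak lists of a pair of transcription factors in DU145 cells, a human line established from prostate cancer. The members were the 4 named genes of 19974 protein-coding genes on chromosomes 1 to 22 and X, and their peaks were those whose midpoint lay inside the gene or within 50 kb of it. The rule found 3 of 4997 ATOH8 peaks and 6 of 11390 TCF3 peaks. Chromatin immunoprecipitation and sequencing (ChIP-seq) was done for Flag-tagged ATOH8, which is a factor of the basic helix-loop-helix (bHLH) class, and for Myc-tagged TCF3, which is one of the E proteins within that class. The labels name 1 immunoprecipitation library and 1 input library per factor, 4 libraries in all, from cells fixed with 1% formaldehyde for 10 min. They do not say how the tagged proteins were introduced or at what level they were made. With 1 library per group there was no replicate error and no test between the factors, and read depth was unknown.

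ID proteins are helix-loop-helix proteins without the basic region that contacts DNA. They pair with E proteins such as TCF3 and keep them, and the tissue-specific bHLH factors that need them as partners, from binding their sites, called E-boxes. ID1, ID2 and ID3 are well-known early targets of BMP signalling through SMAD proteins, and ID4 is described as a growth-restraining member that is often silenced in prostate cancer. Peak lists hold no expression values, so whether DU145 cells transcribed these genes was not measured here.

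The promoters of the 3 ID genes with a peak close by are shown first, since the lists differed in whether a peak lay over them. Each sequence is the RefSeq GRCh38.p14 stretch of the 250 bases before the start site, 5′ to 3′ along the gene. Capitals mark the E-box word CANNTG, which reads the same on both strands.
ID1, plus strand, chr20:31605039-31605288: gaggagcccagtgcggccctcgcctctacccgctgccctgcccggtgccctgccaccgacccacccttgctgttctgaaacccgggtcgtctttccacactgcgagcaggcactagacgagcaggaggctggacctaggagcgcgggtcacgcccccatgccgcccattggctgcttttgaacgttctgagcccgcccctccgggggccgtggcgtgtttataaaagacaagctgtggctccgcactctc
ID2, plus strand, chr2:8681806-8682055: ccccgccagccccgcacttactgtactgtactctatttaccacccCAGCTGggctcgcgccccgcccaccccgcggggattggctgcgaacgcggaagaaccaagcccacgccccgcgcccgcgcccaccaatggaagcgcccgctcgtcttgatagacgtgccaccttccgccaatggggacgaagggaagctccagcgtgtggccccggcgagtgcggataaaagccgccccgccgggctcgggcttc
ID4, plus strand, chr6:19837120-19837369: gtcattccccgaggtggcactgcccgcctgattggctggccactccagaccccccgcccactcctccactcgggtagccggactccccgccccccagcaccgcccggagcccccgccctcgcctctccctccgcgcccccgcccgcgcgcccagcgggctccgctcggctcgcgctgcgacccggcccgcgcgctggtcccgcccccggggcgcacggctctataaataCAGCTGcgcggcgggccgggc

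Of these windows, the ID4 window lay wholly under a TCF3 peak, while the nearest listed peak to the ID1 and ID2 windows was 1615 bp and 2333 bp away, an ATOH8 peak in both cases. The ID4 window held 1 such word, of the form CAGCTG, whose first base was 21 bases before the start site. The ID2 window also held 1, of the same form, 205 bases before the start. The windows of ID1 and ID3 held no CANNTG. At least 1 CANNTG was present in 58.1% of 22156 such windows of protein-coding genes, and CAGCTG in 13.7%. Protein-coding windows wholly under an ATOH8 peak held CAGCTG in 20.1% of 1562 cases, against 13.2% of the 20594 other windows. Those wholly under a TCF3 peak held it in 11.7% of 1486 cases, against 13.8% of the 20670 others. For any CANNTG, the shares were 59% under an ATOH8 peak against 58% of the other windows. Under a TCF3 peak they were 46.9% against 58.9%. These differences were not tested. Further words were searched on both strands, and none of the 4 ID windows held any of them. These were CAGATG with its reverse complement CATCTG (present in 10.2% of protein-coding windows), the word CATATG (1.78%) and the word CACGTG (7.37%). All are forms of CANNTG, so their absence followed from the matches already given. The last was GGCGCC, which overlaps none of these forms and was present in 20.7%. The ID4 window was 78.8% G and C, against 66% for ID1, 69.2% for ID2, 62% for ID3 and a median of 62% over protein-coding windows. A match to a word is a description of the letters, not a binding site.

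Within 5 kb, the 4 ID genes fell into 4 different classes. ID1 had ATOH8 peaks and no TCF3 peak, ID2 had a peak from each list, ID4 had a TCF3 peak and no ATOH8 peak, and ID3 had none from either list. Over all protein-coding genes these classes held 13.3% (ATOH8 only), 11.8% (both), 21% (TCF3 only) and 53.9% (neither). Among the 3161 protein-coding genes of at most 5 kb, a length that all 4 ID genes keep to, they held 8.83%, 8.73%, 23.3% and 59.2% in the same order. Peaks within 50 kb put ID1 with ID2 in the class with both lists, and left ID4 with TCF3 only and ID3 with neither, classes that held 28.1%, 25.6% and 30.8% of protein-coding genes. Under stricter settings the classes changed through ID2. Within 1 kb ID2 had no peak, and with the higher-ranked 50% of each list it had a TCF3 peak only. ID1, ID3 and ID4 stayed in their 5 kb classes under both. Within 100 kb, ID3 had an ATOH8 peak, 73951 bp away, and no TCF3 peak. The widening at ID1 within 50 kb came from a TCF3 peak at the neighbouring gene COX4I2. No peak of either list at an ID gene shared a base with a peak of the other list. Over the full lists 28.5% of ATOH8 peaks and 12.4% of TCF3 peaks did. The 3 and 6 peaks at ID genes are too few to differ from that.

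**Figure D1:**
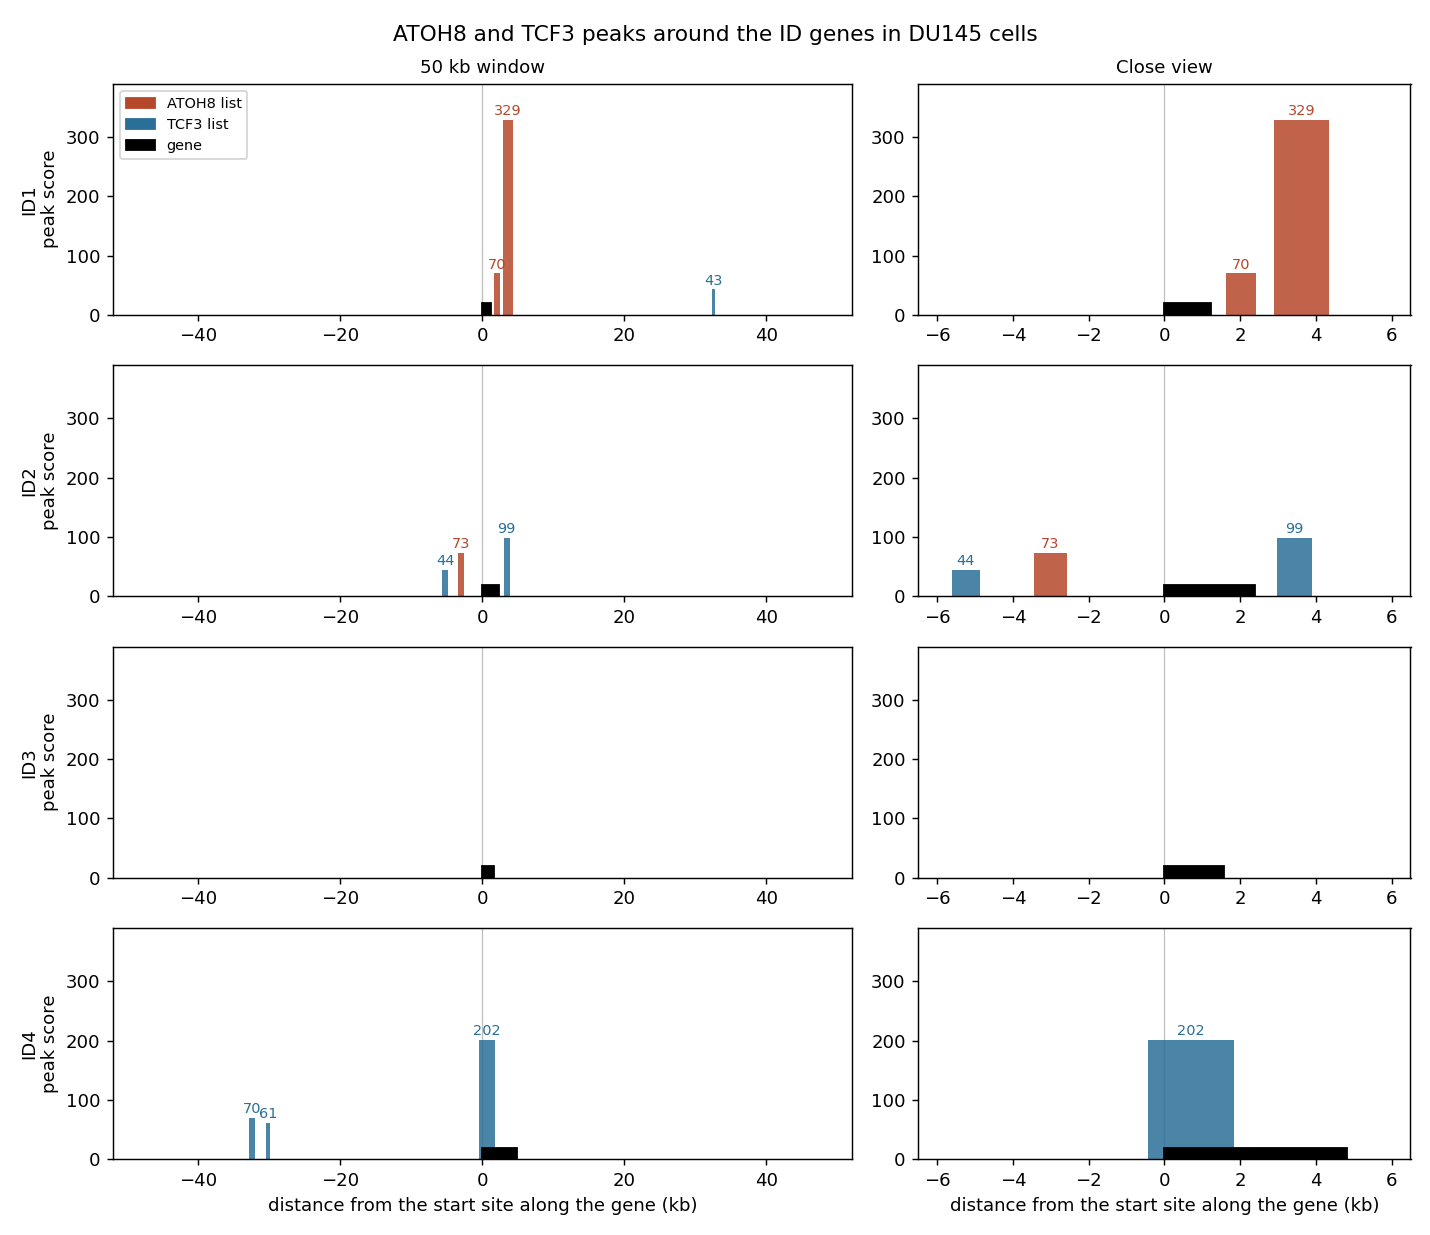
Peaks around the 4 ID genes, drawn to scale as bars whose width is the peak and whose height is the authors' score, against distance from the start site along the gene in kb; the left panels span the 50 kb window and the right panels the close view, with the gene as a black bar. ATOH8 peaks with scores of 70 and 329 follow ID1, a TCF3 peak with score 202 covers the start of ID4, and ID3 has no peak.

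ID1, on chromosome 20 from 31605289 to 31606510 on the plus strand, had the highest ATOH8 peak of the family. That peak ran from 31608185 to 31609640, scored 329 and ranked 70 among the listed ATOH8 peaks, with 98.5% of the list scoring lower. It was also wide, at 1455 bp, and 91.3% of ATOH8 peaks were narrower. Its midpoint lay 2402 bp beyond the 3′ end of ID1 and 3623 bp from the start site, and no annotated gene lay under it. A weaker ATOH8 peak, from 31606903 to 31607703 with score 70 and rank 3171, lay between it and the gene, with its midpoint 793 bp past the 3′ end. The ATOH8 peaks were separated by 482 bp, and neither reached the gene or its start site.

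The weaker ATOH8 peak at ID1 spanned the annotated microRNA gene MIR3193 (chr20:31607186-31607240, plus strand). Its mature RNA is shown because MIR3193 is the annotated gene under that peak, with the seed, bases 2 to 8, in capitals.
hsa-miR-3193: uCCUGCGUaggaucugaggagu

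Few genes had a listed ATOH8 peak as high as the one at ID1. Within 5 kb, 71 of the 5015 protein-coding genes with an ATOH8 peak had a highest score of at least 329, which is 1.42% of them and 0.355% of all protein-coding genes. The median highest score at those 5015 genes was 89. ATOH8 scores stopped at 356 and resumed at 996, and also jumped between 280 and 326 and between 189 and 232. Peaks with scores in those stretches were not analysed here. The rank of 70, the count of 71 genes and the shares at ID1 therefore cover the listed peaks only.

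The position of the peak at ID1, past the 3′ end, was the less frequent one. Strand was held for 409 protein-coding genes of at most 5 kb with an ATOH8 peak within 5 kb. The highest peak lay downstream of the gene in 20.3% of these, inside it in 48.2% and upstream in 31.5%. The ID genes run from 1222 bp for ID1 to 4828 bp for ID4, so these short genes are the closer background.

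The TCF3 list gave ID1 only a distant and weak peak. It ran from 31637613 to 31637994, scored 43 and had 15.7% of the TCF3 list below it. Its midpoint was 31293 bp from ID1 but 109 bp from COX4I2, which encodes an isoform of a cytochrome c oxidase subunit, and the peak reached into that gene. It was also narrow, at 381 bp, with 4.73% of TCF3 peaks narrower. The ATOH8 peak with score 329 lay 27973 bp from it, and 50.9% of ATOH8 peaks had a larger gap to their nearest TCF3 peak.

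**Figure D2:**
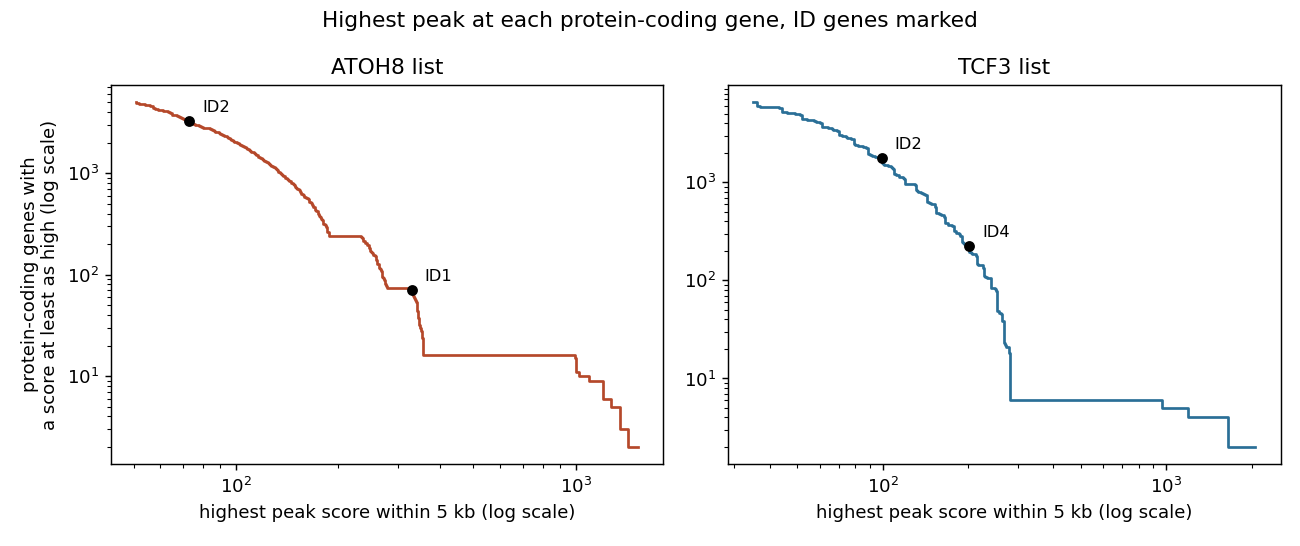
Number of protein-coding genes (vertical, log scale) whose highest peak within 5 kb scores at least the value on the horizontal log axis, for the ATOH8 list (left) and the TCF3 list (right), with ID genes as black points. ID1 (329) lies at 71 genes in the ATOH8 list and ID4 (202) at 225 genes in the TCF3 list, while ID2 lies at 3294 and 1772 genes; flat stretches are score ranges with no listed peak.

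ID4, on chromosome 6 from 19837370 to 19842197 on the plus strand, had the highest TCF3 peak of the family and the only peak of either list over the start site of an ID gene. The peak ran from 19836936 to 19839208 and scored 202. Its rank was 324, shared by 52 peaks of equal score, and 96.7% of TCF3 peaks scored lower. At 2272 bp it was wider than 95.5% of TCF3 peaks, and its midpoint was 702 bp past the start site. Of 15813 protein-coding genes with a listed promoter, 12.6% had a TCF3 peak over a start site and 13.6% had an ATOH8 peak there.

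Of 6566 protein-coding genes with a TCF3 peak within 5 kb, 225 (3.43%) had a highest score of at least 202, and the median highest score was 70. Scores in the TCF3 list stopped at 280 and resumed at 887, and peaks between were not analysed here. Among the highest TCF3 scores at these genes, none lay between 120 and 129 either. TCF3 ranks, counts and shares at ID4 and ID2 thus cover the listed peaks only. A further pair of TCF3 peaks lay upstream of ID4. One, with score 61 from 19806906 to 19807480, had its midpoint 30177 bp from the gene and lay in no annotated gene. The other, with score 70 from 19804450 to 19805340, was 32475 bp away and overlapped the long non-coding RNA gene LNC-LBCS. ID4 was the nearest protein-coding gene to both.

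No ATOH8 peak was listed near ID4. The nearest, with score 73, had its midpoint 559247 bp beyond the gene. The TCF3 peak over the ID4 start was 562091 bp from the nearest ATOH8 peak, and 25.4% of TCF3 peaks had a larger gap to the ATOH8 list. Among the 375 TCF3 peaks scoring at least 202, 16.3% shared a base with an ATOH8 peak. Among the 73 ATOH8 peaks scoring at least 329, 24.7% shared a base with a TCF3 peak. The highest peaks of ID4 and ID1 thus belonged to the larger, unshared part of the peaks at or above their score.

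ID2, on chromosome 2 from 8682056 to 8684461 on the plus strand, was the member with peaks of both lists close by, on opposite sides of the gene. Its ATOH8 peak lay upstream, from 8678625 to 8679473, with score 73, rank 3016 and 38.3% of the ATOH8 list below it. Its midpoint was 3007 bp before the start site, and the peak overlapped ID2-AS1, the neighbouring long non-coding RNA gene. The higher TCF3 peak lay downstream, from 8685037 to 8685954, with score 99, rank 2264 and 77% of the TCF3 list below it. Its midpoint was 1034 bp past the 3′ end. A second TCF3 peak, with score 44 from 8676437 to 8677175, also overlapped ID2-AS1. The midpoint of this second peak was 5250 bp before the start site, just outside the 5 kb window.

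The ATOH8 peak at ID2 was between the TCF3 peaks, with 1450 bp to the upstream one and 5564 bp to the downstream one. This was the closest approach of the lists at any ID gene, and still without a shared base. A larger gap to the TCF3 list was found for 68.1% of ATOH8 peaks. Over the full lists, 28.5% of ATOH8 peaks and 12.4% of TCF3 peaks shared at least 1 bp with the other list, so 3 and 6 unshared peaks are too few to set against these shares. The ATOH8 score at ID2 was below the median highest score of 89 at genes with an ATOH8 peak within 5 kb. Its TCF3 score of 99 was above the matching TCF3 median of 70. Of 2365 protein-coding genes with a peak of each list within 5 kb, 466 (19.7%) had scores of at least 73 for ATOH8 and at least 99 for TCF3.

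ID3, on chromosome 1 from 23557926 to 23559501 on the minus strand, had no listed peak within 50 kb. The nearest ATOH8 peak scored 66 and had its midpoint 73951 bp away, inside ASAP3, an ArfGAP gene. The nearest TCF3 peak scored 75 and was 184133 bp away, inside ELOA, which encodes an elongin subunit, where it shared a base with an ATOH8 peak of score 80. Of all protein-coding genes, 30.8% had no peak of either list within 50 kb. Since stretches of scores were not analysed here, ID3 was not taken as unbound.

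The other peaks just beyond the 50 kb limit were few. An ATOH8 peak with score 146 lay 55322 bp past ID1, with BCL2L1, which encodes the survival protein BCL-XL, as its nearest protein-coding gene at 2620 bp. A TCF3 peak with score 61 lay 98413 bp upstream of ID2 and overlapped the long non-coding RNA gene LINC01814. Farthest out but inside the limit were the TCF3 peaks at 31293 bp from ID1 and at 32475 bp from ID4.

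Set against all protein-coding genes, 4 genes were too few to tell the family as a whole from the background. Within 5 kb, 2 of 4 ID genes had an ATOH8 peak (exact 95% interval 6.76 to 93.2%), against 25.1% of all protein-coding genes and 17.6% of the 3161 of at most 5 kb. For TCF3 the count was also 2 of 4, against 32.9% and 32%. Within 50 kb, 2 of 4 ID genes had an ATOH8 peak, against 43.6% of protein-coding genes and 40% of the short ones. In the same window 3 of 4 had a TCF3 peak (exact interval 19.4 to 99.4%), against 53.7% and 59.3%. The exact (Clopper-Pearson) intervals cover the counting of genes only. They treat the 4 named genes as random draws, which they were not. With 4 genes the intervals are so wide that their including each of these background shares decides nothing.

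**Figure D3:**
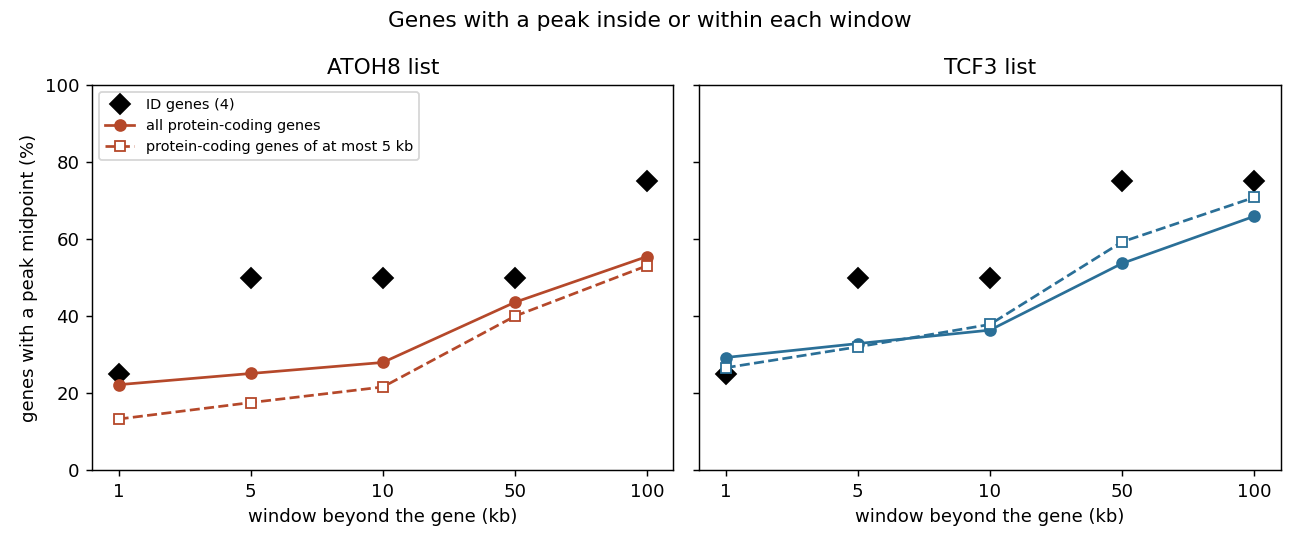
Share of genes (vertical, percent) with a peak midpoint inside the gene or within windows of 1 to 100 kb (horizontal), for the ATOH8 list (left) and the TCF3 list (right). Black diamonds are the 4 ID genes, filled circles all protein-coding genes and open squares those of at most 5 kb; at 5 kb the diamonds stand at 2 of 4 genes in both panels.

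Genes that act around the ID proteins were described in the same way, with a peak within 5 kb counted against the 25.1% (ATOH8) and 32.9% (TCF3) of all protein-coding genes. Of these 40 genes, 32 are longer than each of the ID genes, and their lists were chosen with earlier results of these data known. The E proteins, the partners that ID proteins hold, had ATOH8 peaks at 2 of 3 genes, TCF3 (score 102) and TCF12 (86). TCF3 peaks lay at 3 of 3, the highest at TCF12 (154) and TCF4 (61).

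The BMP and SMAD genes, which act upstream of ID transcription, had TCF3 peaks more often than ATOH8 peaks, as counts. The TCF3 list was also the longer, with 11390 peaks against 4997. Of 24 such genes, 8 had an ATOH8 peak and 19 a TCF3 peak, against 25.1% and 32.9% of protein-coding genes of any length. The 8 with an ATOH8 peak also had a TCF3 peak, the class of ID2. Of the 5015 protein-coding genes with an ATOH8 peak within 5 kb, 47.2% also had a TCF3 peak, and 46.8% did among the 4460 longer than 5 kb. Those shares do not allow for the TCF3 peaks at 19 of the 24 genes here, with or without ATOH8. The classes of both and of ATOH8 only held 11.8% and 13.3% of all protein-coding genes, and this count of 8 was not tested against them. Of 6 ligands, BMP7 alone had an ATOH8 peak (score 118), and the highest TCF3 peaks lay at BMP4 (192) and BMP6 (143). Of 8 receptors, ATOH8 peaks lay at BMPR1A (83), a type I receptor, and BMPR2 (54), a type II receptor, and the highest TCF3 peaks at BMPR1A (240) and ACVR2A (82). The signal-transducing SMAD5 and SMAD1 had ATOH8 scores of 79 and 57, and TCF3 scores of 131 and 114. Among inhibitors of the pathway, ATOH8 peaks lay at 3 of 6, led by the inhibitory SMAD7 (106) and the secreted antagonist NOG (81). TCF3 peaks lay at 6 of 6, the highest at GREM1 (110), another secreted antagonist, and SMAD6 (103), an inhibitory SMAD.

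The HES and HEY genes encode proteins of the bHLH class, several of which are repressors and targets of Notch signalling. ATOH8 peaks lay at 6 of 10, against 25.1% of all protein-coding genes. The highest were at HES1 (score 277, with 98.4% of the list lower) and HES7 (258). These were below the score of 329 at ID1 and above every other ATOH8 score among the 40 genes. TCF3 peaks also lay at 6 of 10, against 32.9% of all protein-coding genes, led by HEY1 (61) and HEY2 (59). All scored below the highest TCF3 peak within 5 kb of ID2 (99) and of ID4 (202). These counts were not tested. HES1 and HES7, highest for ATOH8, had TCF3 scores of 36, close to the lowest listed score of 35. Of 3 genes reported downstream of ID proteins, the growth and angiogenesis regulators CDKN2A (62) and THBS1 (96) had an ATOH8 peak and no TCF3 peak. The cell cycle inhibitor gene CDKN1A (76) had a TCF3 peak and no ATOH8 peak. Over all protein-coding genes these classes held 13.3% and 21%, and 3 genes are too few to set against them.

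**Figure D4:**
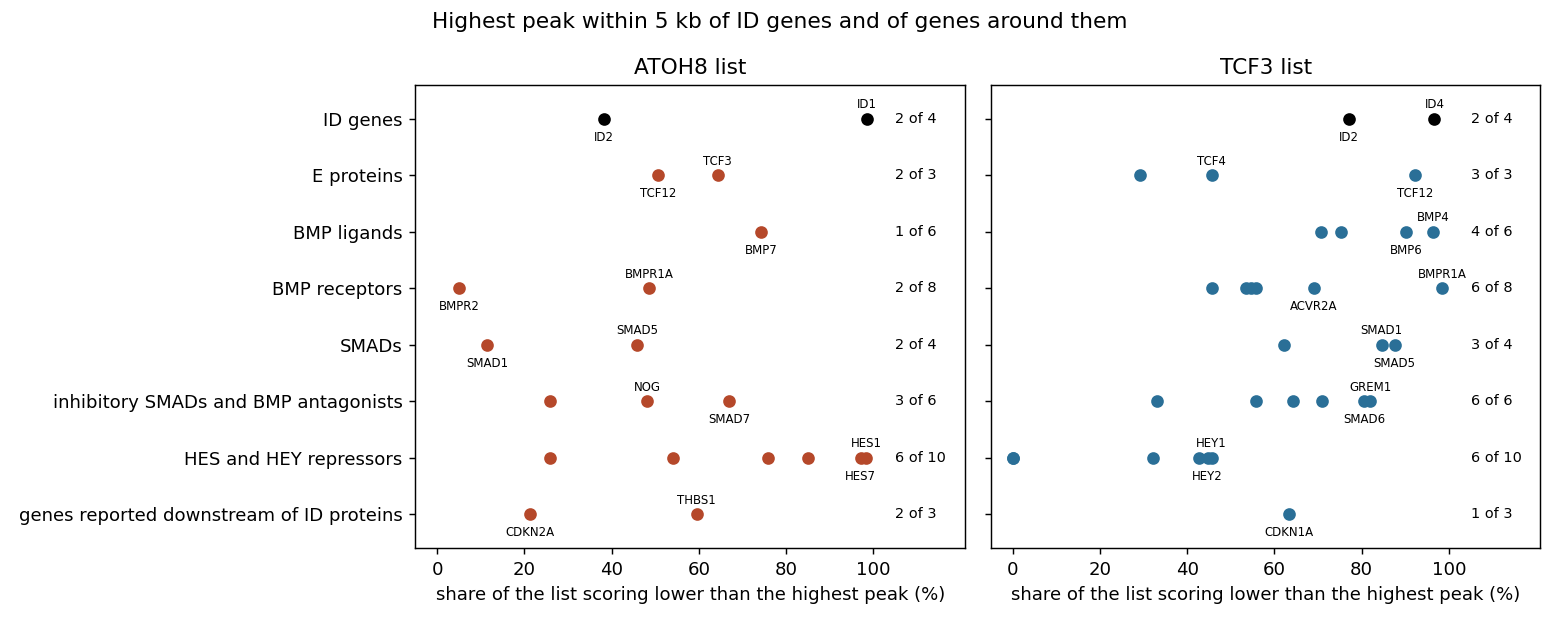
Highest peak within 5 kb of each gene, placed by the share of its own list that scores lower (horizontal, percent), for the ATOH8 list (left) and the TCF3 list (right); rows are the ID genes (black) and 7 groups of related genes, and the numbers at the right give genes with a peak of genes in the group. The top 2 genes of a row are named: ID1, HES1 and HES7 lie at the far right for ATOH8, and ID4, BMP4 and BMPR1A for TCF3.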

How the data were processed

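One peak list per immunoprecipitation was used, each matched to its factor by the list's name. The score of each peak is the authors' own value as deposited, with no definition given, and was used only within its list. The build was hg38, per the submitters' processing notes. Not given in the sources used here were the aligner, the peak caller and its threshold, how the input entered, and whether coordinates count from 0 or 1. The inputs were not analysed here. Lines that held no peak (3 for ATOH8, 5 for TCF3) were skipped.

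Gene positions came from RefSeq GRCh38.p14, and start sites and promoter letters from its promoter windows of 250 bases before and 50 after each start, of which only the bases before were used. Distances run from the peak midpoint to the gene, with 0 inside, and widths are end minus start. Ranks are by score, with equal scores sharing the best rank. Lists shared a peak when at least 1 bp overlapped. Motifs were searched on both strands.

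No test was run, since each factor had 1 library. Members and lists were chosen with earlier results of these data known. Named genes are the ID genes, genes nearest to their peaks and the 2 highest-scoring genes per group and factor. A planned comparison of ID protein sequences was not run. The backgrounds by gene length, the comparison of gaps and the classes under other settings were added after seeing the data. Assignment and overlap were tested on simulated peaks. Python 3.11.15, numpy 2.4.6, pandas 2.3.3, scipy 1.17.1 and matplotlib 3.10.9 were used.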

Additional observations from a re-analysis of the deposited data

How the results depend on the processing

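The count of 0 shared peaks at ID genes stayed at 0 with a 100 kb window and with edge distances, which could add peaks. It could not rise with a 10 kb window, the higher-ranked 50% of peaks, nearest-gene assignment or a reciprocal overlap of 50%. Those settings only drop peaks or tighten the rule. Midpoints within 200 bp could not raise it either, since the smallest gap between the lists at an ID gene was 1450 bp. ATOH8 peaks at ID genes numbered 3 within 50 kb, 5 within 100 kb and 1 with the higher-ranked 50% of the list, which keeps only the peak with score 329 at ID1. TCF3 peaks numbered 6 within 50 kb and 3 within 10 kb. ID genes with an ATOH8 peak numbered 2 within 5 kb, against 1 within 1 kb and 1 with the higher-ranked 50% of peaks. ID genes with a TCF3 peak numbered 2 within 5 kb and 1 within 1 kb. The other alternatives moved no count by more than 1.5 times. No paired analysis was possible because each group had 1 library. Depth was unknown, and score stretches not analysed here limit what an empty window shows.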
